A study of Homo sapiens with 6 samples.

Results

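CDK inhibitors and D-type cyclins set how readily a cell passes from the first gap phase into DNA synthesis. They were followed here in ONS-76 cells, an established human medulloblastoma line, after knockdown of the histone demethylase KDM1A, also called LSD1. The group holds 10 genes. These are the CIP/KIP inhibitors CDKN1A, CDKN1B and CDKN1C, the INK4 inhibitors CDKN2A, CDKN2B, CDKN2C and CDKN2D, and the D-type cyclins CCND1, CCND2 and CCND3. A probe set was taken when the platform annotation gave it a member's symbol and no other. This rule found 22 probe sets of 9 genes, out of 41091 probe sets that name 1 of 19775 genes. CDKN2C had no probe set that names it alone in the annotation used here, and it was not analysed.

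RNA came from cells transfected with 1 siRNA directed against KDM1A (siKDM1A, 3 arrays) and from cells that received vehicle in its place (control, 3 arrays). Each array stands for an independent transfection, per the study's methods, and was an Affymetrix U133 Plus 2.0 chip that gives 1 log2 RMA value per probe set. The labels put the harvest at 48 h after knockdown and call the target KDM5A/LSD1, whereas the paper names KDM1A and a later time. KDM1A itself had log2 values of 6.25, 6.34 and 6.31 in siKDM1A cells, against 9.50, 9.57 and 9.49 in control cells (log2 fold change -3.22, adjusted p = 7.1e-07, limma). None of the 5 probe sets of KDM5A passed the test. Of these, 226371_at and 202040_s_at were lower without overlap of the groups (log2 fold change -0.39 and -0.27, adjusted p = 0.056 and 0.14, limma). The others had overlapping groups, with log2 fold changes of 0.05, 0.06 and -0.22. The control cells carried no siRNA and, per the paper, received the transfection reagent alone. What any siRNA did, what this 1 siRNA did to other genes and what the loss of KDM1A did cannot be told apart. ONS-76 is a single cell line. The labels do not say whether siKDM1A and control arrays with the same replicate letter, a, b or c, belong together.

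The kinase complexes of D-type cyclins with CDK4 or CDK6, and of cyclin E with CDK2, phosphorylate the retinoblastoma protein and its relatives, which then release E2F transcription factors. INK4 proteins bind CDK4 and CDK6 and keep D-type cyclins off them, while CIP/KIP proteins bind complete cyclin and CDK complexes, above all those of CDK2. In the developing cerebellum, D-type cyclins are known for their part in the proliferation of granule neuron precursors under sonic hedgehog signalling, and CDKN1B is known as a brake on these cells in mice.

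Of the 9 genes measured, 1 was called higher and 1 lower after KDM1A knockdown. CDKN1A, which encodes p21, rose 1.44-fold, CDKN1C, which encodes p57, fell on 2 of its 5 probe sets by up to 1.74-fold, and no INK4 gene and no D-type cyclin passed the test. Of the 22 probe sets, 1 was higher, 2 were lower and 19 did not pass limma's test at an adjusted p of 0.05. Over all 54613 probe sets tested, 2.18% were higher and 3.73% were lower, and counts as small as those of the members do not set them apart from these shares. The arrays of the groups did not overlap for 10 of the 22 probe sets, against 24.5% of all probe sets. Among these 10 were all 7 probe sets of the CIP/KIP genes, 3 of the 8 of the D-type cyclins and 0 of the 7 of the INK4 genes. The 7 CIP/KIP probe sets include the 5 of CDKN1C, and they did not all change in the same direction. Of the INK4 probe sets, only CDKN2A 209644_x_at and CDKN2D 210240_s_at lay above the array medians. An unadjusted p under 0.05 was reached by 7 member probe sets, and by 18.8% of all probe sets. The median log2 fold change was 0.05 over the member probe sets and 0.01 over all probe sets. The member median was 0.09 without control replicate a and 0.0041 without control replicate c. The methods' one-way analysis of variance, adjusted in the same way, called 0 member probe sets and 1.24% of all probe sets. With 3 arrays per group, the standard errors of the member log2 fold changes lay between 0.083 and 0.19.

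**Figure D1:**
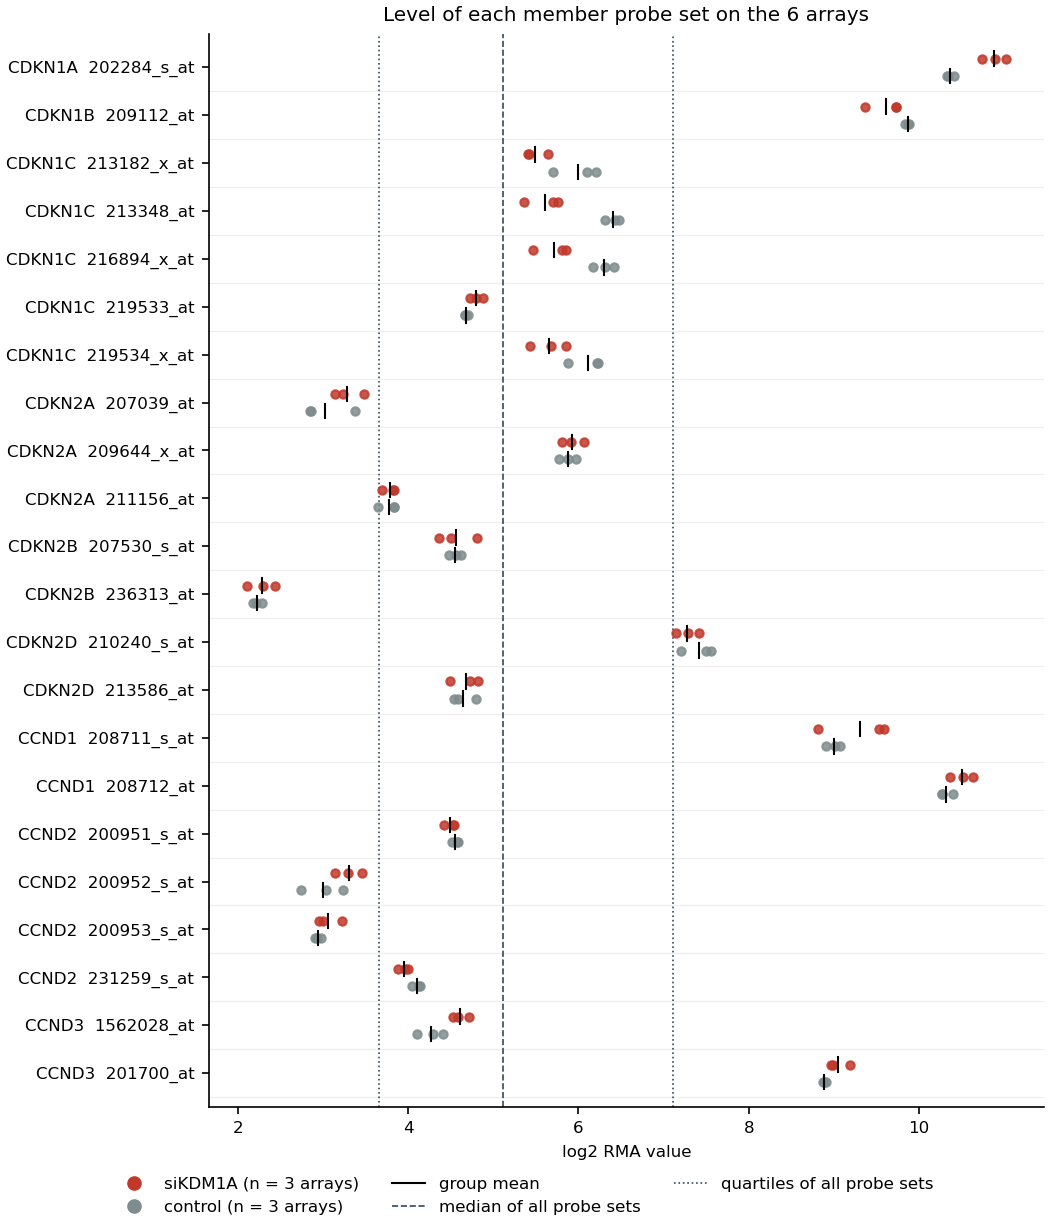
Log2 RMA value (horizontal axis) of the 22 member probe sets (rows) on the 3 siKDM1A arrays (red, upper of each row) and the 3 control arrays (grey, lower), with group means as black ticks and the median and quartiles of all probe sets as vertical lines. CDKN1A sits near 10.88 in siKDM1A cells and 10.36 in control cells with no overlap, 4 of the 5 CDKN1C rows lie to the left of their control points, and 11 of the 22 rows have means below the array medians.

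The CIP/KIP family held every call. For CDKN1A, probe set 202284_s_at, the log2 values were 10.89, 10.74 and 11.02 on the siKDM1A arrays and 10.41, 10.34 and 10.33 on the control arrays. All siKDM1A values lay above all control values, by more than the spread within either group. The means were 10.88 ± 0.14 in siKDM1A cells and 10.36 ± 0.04 in control cells (SD, n = 3 each), a log2 fold change of 0.52 with a standard error of 0.096 (95% interval 0.31 to 0.74, adjusted p = 0.014, limma). In these bulk samples, more RNA per cell and more cells with a high level cannot be told apart. The call was lost without control replicate b (adjusted p = 0.058), without control replicate c (adjusted p = 0.072) and under the methods' one-way analysis of variance (adjusted p = 0.097), while the log2 fold change stayed between 0.46 and 0.60.

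CDKN1B, which encodes p27, gave values on the other side. Probe set 209112_at had log2 values of 9.73, 9.73 and 9.36 in siKDM1A cells and of 9.84, 9.89 and 9.87 in control cells. The groups did not overlap, but siKDM1A replicate c stood well below the other two, and without it the log2 fold change was -0.14. The log2 fold change was -0.26 with a 95% interval from -0.51 to -0.0052, and it did not pass the test after adjustment (adjusted p = 0.26, limma). The difference between the changes of CDKN1A and CDKN1B, taken array by array, was 0.78 on the log2 scale. Its exact permutation p was 0.1, two-sided, the smallest that 3 arrays against 3 allow, and 0.11 after Benjamini-Hochberg adjustment over the 8 pairs of probe sets compared. Because both probe sets had non-overlapping groups, in opposite directions, this p was fixed in advance. It adds nothing to the 2 changes themselves.

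CDKN1C, an imprinted gene expressed mainly from the maternal copy, was represented by 5 probe sets, which disagreed. On 213348_at the log2 values were 5.36, 5.76 and 5.70 in siKDM1A cells, against 6.47, 6.32 and 6.43 in control cells. The highest siKDM1A value was thus well below the lowest control value, with a log2 fold change of -0.80 and a standard error of 0.12 (95% interval -1.06 to -0.53, adjusted p = 0.0047, limma). On 216894_x_at the log2 values were 5.85, 5.47 and 5.81 in siKDM1A cells and 6.31, 6.41 and 6.17 in control cells, a log2 fold change of -0.59 (adjusted p = 0.022, limma). That call was lost without control replicate a, b or c (adjusted p = 0.071, 0.089 and 0.054) and with the replicate letter as a block (adjusted p = 0.052). The methods' one-way analysis of variance gave adjusted p values of 0.10 for 213348_at and 0.17 for 216894_x_at.

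The 3 other probe sets of CDKN1C did not pass the test. The values of 213182_x_at were 5.64, 5.41 and 5.42 in siKDM1A cells and 5.69, 6.20 and 6.10 in control cells (log2 fold change -0.51, adjusted p = 0.065, limma). Control replicate a lay near the siKDM1A values here, and without it the adjusted p was 0.019. The values of 219534_x_at were 5.67, 5.43 and 5.86 in siKDM1A cells and 5.88, 6.22 and 6.23 in control cells (log2 fold change -0.46, adjusted p = 0.095, limma). The dimmest probe set, 219533_at, pointed the other way, with 4.88, 4.72 and 4.79 in siKDM1A cells and 4.67, 4.66 and 4.71 in control cells (log2 fold change 0.12, 95% interval -0.07 to 0.31, adjusted p = 0.51, limma). Its mean lay below the median of every array, whereas the other 4 lay above it. The change on 219533_at differed from those on the other 4 probe sets by 0.58 to 0.92 on the log2 scale, each with an exact permutation p of 0.1 and an adjusted p of 0.11 over the 8 pairs. All 5 probe sets had non-overlapping groups, with 219533_at opposite in direction to the other 4. These permutation p-values were thus fixed in advance and add nothing to the changes themselves. Probe set 219533_at was also singled out after its values were seen. IDs that end in _x_at mark probe sets whose probes can also bind other transcripts, so 213348_at is the only called probe set of CDKN1C without that mark. When the 5 probe sets were averaged on each array, the log2 fold change was -0.45 (adjusted p = 0.0064, limma).

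**Figure D2:**
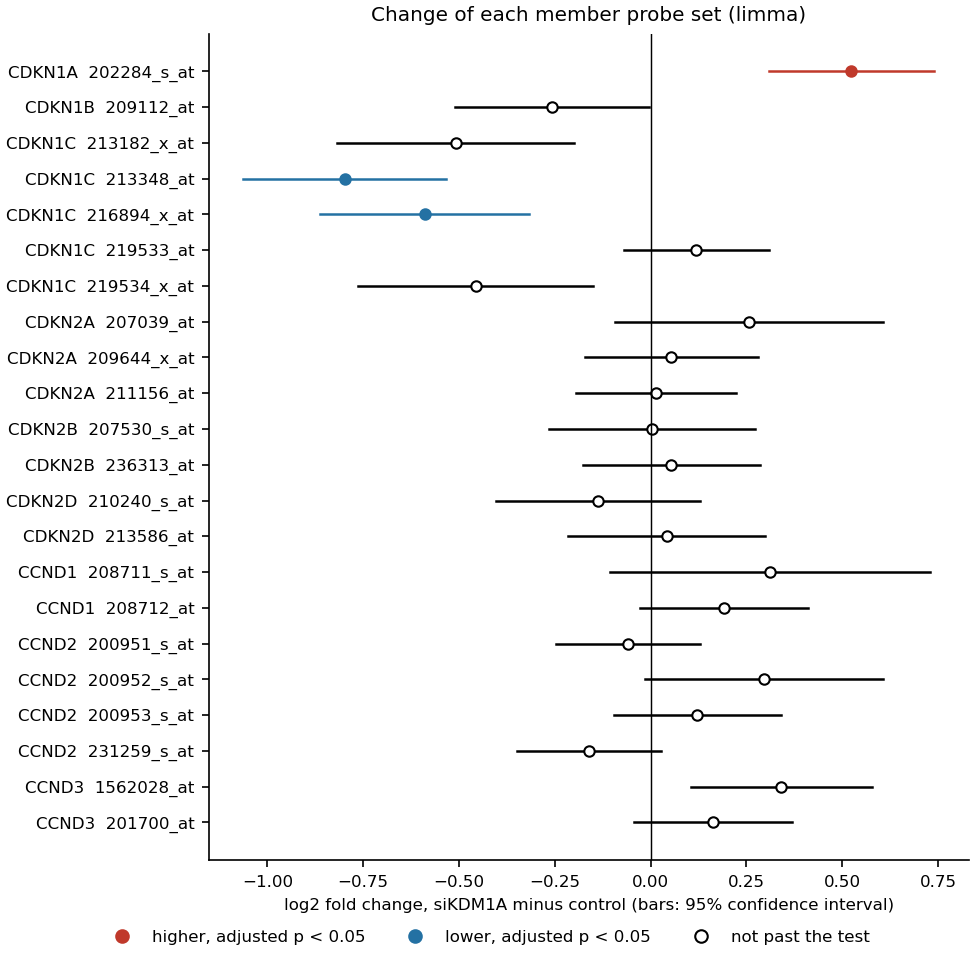
Log2 fold change, siKDM1A minus control (horizontal axis), of the 22 member probe sets (rows), with 95% confidence intervals from limma as bars. Red marks the 1 probe set that was higher (CDKN1A, 0.52), blue the 2 that were lower (CDKN1C, -0.80 and -0.59) and open circles the 19 that did not pass an adjusted p of 0.05.

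Because CDKN1A was the only member called higher and CDKN1B had a change of the opposite sign, their promoter windows are shown. They run from 250 bases before to 50 after the RefSeq start in build GRCh38.p14, on the plus strand, at chr6:36678464-36678763 for CDKN1A and at chr12:12717118-12717417 for CDKN1B. Capitals mark GGGCGG, the GC box bound by SP and KLF family factors, searched on both strands:
CDKN1A: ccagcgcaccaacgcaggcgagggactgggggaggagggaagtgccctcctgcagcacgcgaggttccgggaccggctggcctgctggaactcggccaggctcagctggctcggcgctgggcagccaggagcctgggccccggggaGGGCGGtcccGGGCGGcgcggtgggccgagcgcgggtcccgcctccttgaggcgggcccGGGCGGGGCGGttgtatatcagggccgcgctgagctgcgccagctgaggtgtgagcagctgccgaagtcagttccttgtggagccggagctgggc
CDKN1B: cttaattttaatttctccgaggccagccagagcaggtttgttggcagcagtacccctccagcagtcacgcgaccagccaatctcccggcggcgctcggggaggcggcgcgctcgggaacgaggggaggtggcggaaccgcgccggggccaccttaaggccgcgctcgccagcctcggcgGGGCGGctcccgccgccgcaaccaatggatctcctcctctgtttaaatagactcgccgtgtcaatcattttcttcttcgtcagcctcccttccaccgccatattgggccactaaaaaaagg
The CDKN1A window held 4 GC boxes, of which the last 2 overlap, and had a GC content of 74.3%. The CDKN1B window held 1 GC box and had a GC content of 62.3%. Among members that were not called, windows of CCND3 held 5, 4 and 0 GC boxes and that of CDKN2D held 3. Those of CDKN2A held 0 and 2, and that of CDKN2B held 2. CDKN1C, the member called lower, had no window here. Over 27305 promoter windows of the same length, 44.6% held a GC box and the median GC content was 58.3%. No match was found in either window, on either strand, to TATAAA (12% of all windows), TGANTCA of AP-1 (7.76%), GCGNGGGCG of EGR1, which can overlap a GC box (9.28%), TTTNNCGC of E2F (6.90%), the E-box CACGTG (7.43%) or TTTGAA, the cell cycle homology region (15.4%). These matches describe the letters of the windows only.

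The INK4 genes showed no difference beyond the spread between arrays. All 7 probe sets of CDKN2A, CDKN2B and CDKN2D had overlapping groups, with log2 fold changes from -0.14 to 0.26 and 95% intervals that together ran from -0.40 to 0.61. None passed limma's test, none had an unadjusted p under 0.05 and none passed the methods' one-way analysis of variance. CDKN2A, whose locus encodes p16 and, in another reading frame, ARF, had its brightest probe set 209644_x_at at 6.07, 5.80 and 5.92 in siKDM1A cells and at 5.98, 5.88 and 5.77 in control cells (log2 fold change 0.05, 95% interval -0.17 to 0.28, adjusted p = 0.83, limma). Its other probe sets, 207039_at and 211156_at, had log2 fold changes of 0.26 and 0.01 (adjusted p = 0.43 and 0.96, limma). On each array 207039_at was dimmer than the lower quartile and 211156_at dimmer than the median. The brightest carries the _x_at mark of probes that can also bind other transcripts, so these values might miss a change of CDKN2A. The value of 207039_at was 0.16 without siKDM1A replicate a, 0.17 without control replicate a and 0.43 without control replicate c, and it passed the test in none of these cases. CDKN2B, which encodes p15, a known responder to TGF-beta in other cells, had log2 values of 4.80, 4.36 and 4.51 in siKDM1A cells and of 4.48, 4.63 and 4.56 in control cells on 207530_s_at (log2 fold change 0.0037, adjusted p = 0.99, limma). Its dimmer probe set 236313_at averaged 2.28 ± 0.17 in siKDM1A cells and 2.23 ± 0.06 in control cells (SD, n = 3 each). At such low values a change of the transcript might not be detectable. CDKN2D, which encodes p19, was the INK4 gene with a probe set in the upper quartile of the arrays. On 210240_s_at its log2 values were 7.15, 7.28 and 7.41 in siKDM1A cells and 7.20, 7.55 and 7.50 in control cells (log2 fold change -0.14, 95% interval -0.40 to 0.13, adjusted p = 0.60, limma). Its second probe set, 213586_at, had a log2 fold change of 0.04 (adjusted p = 0.89, limma).

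No D-type cyclin passed the test on any of 8 probe sets, by limma or by the methods' one-way analysis of variance, and 1 had an unadjusted p under 0.05. CCND1, the D-type cyclin most often overexpressed in human cancers, gave uneven values. Probe set 208711_s_at read 9.59, 9.53 and 8.81 in siKDM1A cells and 8.91, 9.02 and 9.07 in control cells. Replicates a and b of siKDM1A lay above every control array and replicate c below every control array. The log2 fold change was 0.31 with a 95% interval from -0.11 to 0.73 (adjusted p = 0.42, limma). Without siKDM1A replicate c it was 0.56, with an adjusted p of 0.016. The second CCND1 probe set, 208712_at, did not set replicate c apart in that way, with 10.36, 10.51 and 10.63 in siKDM1A cells and 10.40, 10.27 and 10.27 in control cells (log2 fold change 0.19, 95% interval -0.03 to 0.41, adjusted p = 0.34, limma). On this probe set siKDM1A replicate c had the highest value of all.

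CCND3, the D-type cyclin found in most cell types, was non-overlapping on both of its probe sets, with small differences. The brighter, 201700_at, read 8.98, 8.97 and 9.19 in siKDM1A cells and 8.88, 8.87 and 8.90 in control cells (log2 fold change 0.16, 95% interval -0.04 to 0.37, adjusted p = 0.39, limma). The dimmer, 1562028_at, read 4.59, 4.52 and 4.71 in siKDM1A cells and 4.41, 4.29 and 4.10 in control cells (log2 fold change 0.34, 95% interval 0.11 to 0.58, adjusted p = 0.10, limma). It was the D-type cyclin probe set with an unadjusted p under 0.05. The changes of the brightest CCND3 and CCND1 probe sets differed by -0.03 on the log2 scale, CCND3 minus CCND1 (exact permutation p = 0.6, n = 3 each).

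CCND2, which is prominent in the proliferating precursors of the mouse cerebellum, was dim on all of its 4 probe sets, which lay below the median of every array and in 2 cases below the lower quartile. Their log2 fold changes were -0.06, 0.30, 0.12 and -0.16 (adjusted p from 0.29 to 0.77, limma). The value of 200952_s_at, 0.30, was 0.16 without control replicate b, and that of 200953_s_at, 0.12, was 0.039 without siKDM1A replicate b. That of 200951_s_at, -0.06, was -0.019 without the same array. Only 231259_s_at had non-overlapping groups, with 3.88, 4.00 and 3.96 in siKDM1A cells and 4.14, 4.05 and 4.13 in control cells.

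**Figure D3:**
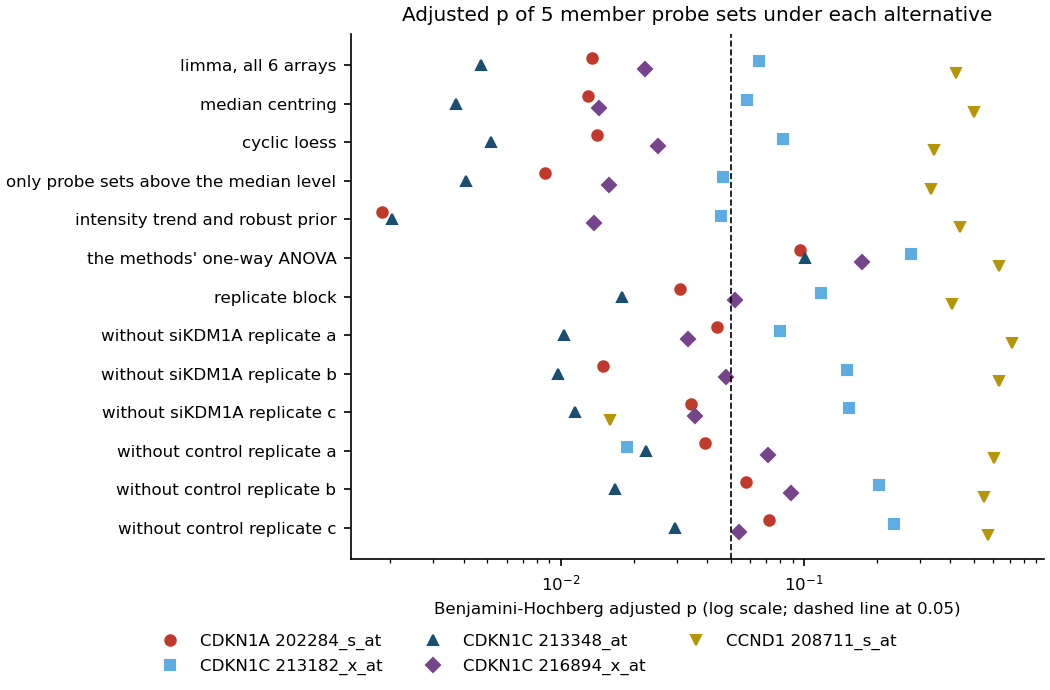
Benjamini-Hochberg adjusted p (horizontal axis, log scale, dashed line at 0.05) of 5 member probe sets (symbols) in the limma fit of all 6 arrays and under 12 alternatives (rows). CDKN1C 213348_at lies left of the line in every row but the one-way analysis of variance, CDKN1A 202284_s_at lies right of it in 3 rows, and CCND1 208711_s_at lies left of it only without siKDM1A replicate c.

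The partners of the members were measured in the same fit, with 1 probe set per gene, the brightest. On that basis 3.45% of all 19775 genes were higher and 5.46% were lower, with a median log2 fold change of 0.0069. Further probe sets of a named list gene did not always pass the test, as for CDC25C, CCNB2, E2F2, BUB1, ETS2 and FOXO3. Of 19 measured CDK and cyclin partners, 5 fell, 0 rose and 14 did not pass the test, with a median log2 fold change of -0.27. At an unadjusted p under 0.05, 1 of them was higher and 10 lower, and the one-way analysis of variance called 0 higher and 4 lower. The direct partners of the D-type cyclins were not among those that fell. CDK4 had a log2 fold change of 0.09 (adjusted p = 0.69, limma), and CDK6, with 7 probe sets of which none passed the test, had one of -0.27 (adjusted p = 0.14, limma). CDK2, the main target of p21 and p27, had a log2 fold change of -0.18 (adjusted p = 0.41, limma), and its cyclins CCNE1 and CCNE2 had 0.05 and -0.57 (adjusted p = 0.83 and 0.069, limma). The phosphatase gene CDC25C read 6.72, 6.79 and 6.73 in siKDM1A cells and 7.51, 7.74 and 7.63 in control cells (log2 fold change -0.88, adjusted p = 0.00080, limma). CCNA1, a cyclin known mainly from the male germ line, CCNB2 and CCNB1, the mitotic cyclins, and WEE1, a kinase that restrains CDK1, fell by 1.01, 0.65, 0.55 and 0.46 on the log2 scale (adjusted p from 0.0032 to 0.011, limma). CDK1 was just outside, with a log2 fold change of -0.49 and an adjusted p of 0.0503.

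Of 13 pocket proteins and E2F factors, 3 fell, 1 rose and 9 were not called, with a median log2 fold change of -0.08. The one-way analysis of variance called 2 lower and 0 higher, and averaging each gene's probe sets left 0 higher. E2F8, an E2F factor that represses transcription, read 5.92, 5.99 and 5.54 in siKDM1A cells and 7.57, 7.30 and 7.50 in control cells. Its log2 fold change of -1.64 was the largest in size of the 121 list genes measured (adjusted p = 0.00023, limma). E2F2, an activating E2F, and RBL1, which encodes the pocket protein p107, had log2 fold changes of -0.67 and -0.47 (adjusted p = 0.0025 and 0.039, limma). E2F5, a partner of the pocket proteins, rose by 0.66 on its brighter probe set (adjusted p = 0.0079, limma) and had a log2 fold change of -0.11 on its other, dim one. RB1 and E2F1 had log2 fold changes of -0.07 and -0.11 (adjusted p = 0.76 and 0.63, limma).

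Of 23 measured E2F-dependent proliferation genes, 19 fell, 0 rose and 4 did not pass the test, with a median log2 fold change of -0.56. The list was chosen with earlier results of these data known, and dependence on E2F factors was not tested. All 23 had an unadjusted p under 0.05 and a negative log2 fold change, and the one-way analysis of variance called 9 of them lower and 0 higher. MCM5, a subunit of the replicative helicase, read 8.46, 8.32 and 8.59 in siKDM1A cells and 9.39, 9.35 and 9.43 in control cells (log2 fold change -0.93, adjusted p = 0.00078, limma). MKI67, the proliferation marker Ki-67, fell by 0.98 on the log2 scale, and each of its 4 probe sets passed the test. TOP2A, a topoisomerase of dividing cells, and BUB1, a spindle checkpoint kinase, fell by 0.71 and 0.73. PCNA, the sliding clamp of DNA polymerase, was among the 4 that did not pass (log2 fold change -0.28, adjusted p = 0.086, limma).

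Of 18 genes that turn over CDK inhibitors and D-type cyclins, 2 fell, 0 rose and 16 did not pass the test, with a median log2 fold change of -0.11. At an unadjusted p under 0.05, 0 were higher and 5 lower, and the one-way analysis of variance called 0 higher and 2 lower. DTL, the substrate receptor through which the CRL4 ubiquitin ligase degrades p21 during DNA synthesis, read 9.29, 9.40 and 9.32 in siKDM1A cells and 9.94, 9.95 and 9.94 in control cells (log2 fold change -0.60, adjusted p = 0.0031, limma). Both of its probe sets passed the test. CDC20, an activator of the anaphase promoting complex, fell by 0.59 on the log2 scale (adjusted p = 0.0038, limma). SKP2, the receptor of the SCF ligase for p27, p21 and p57, had a log2 fold change of -0.04 on its brightest probe set (adjusted p = 0.83, limma) but of -0.54 on 210567_s_at (adjusted p = 0.027, limma). AMBRA1, the receptor for D-type cyclins, had a log2 fold change of 0.05 (adjusted p = 0.83, limma).

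Of 27 measured transcriptional regulators of the members, out of 30 listed, 5 fell, 8 rose and 14 were not called, with a median log2 fold change of -0.04. Without control replicate a or c, 5 were higher and 3 lower, and the one-way analysis of variance called 1 higher and 2 lower. JUN, an AP-1 subunit known to activate CCND1, read 10.97, 10.96 and 10.92 in siKDM1A cells and 9.55, 9.55 and 9.54 in control cells (log2 fold change 1.40, adjusted p = 4.4e-05, limma), and all 4 of its probe sets passed the test. EGR1, a growth factor response factor, and FOS, the partner of JUN in AP-1, had log2 fold changes of 1.12 and 0.96 (adjusted p = 0.00081 and 0.0089, limma). ETS1, an activator of several CDK inhibitor genes, and MXD1, a MYC antagonist, had 0.84 and 0.76 (adjusted p = 0.0038 and 0.0028, limma). KLF4, an activator of CDKN1A, rose by 0.50 (adjusted p = 0.049, limma), and ID1, which opposes basic helix-loop-helix factors, by 0.48 (adjusted p = 0.015, limma). Among those that fell were ETS2 by 0.57 and FOXO3 by 0.59 on the log2 scale (adjusted p = 0.0046 and 0.0075, limma). EZH2, the methyltransferase that silences CDKN2A and CDKN1C in other cells, fell by 0.56 (adjusted p = 0.0052, limma). SP1, which binds GC boxes, fell by 0.45 on its brightest probe set (adjusted p = 0.034, limma), while its 3 others did not pass. MYC, a repressor of CDKN1A, and MDM2 had log2 fold changes of -0.16 and -0.12 (adjusted p = 0.54 and 0.53, limma). The part of these regulators in the changes of the members was not tested.

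**Figure D4:**
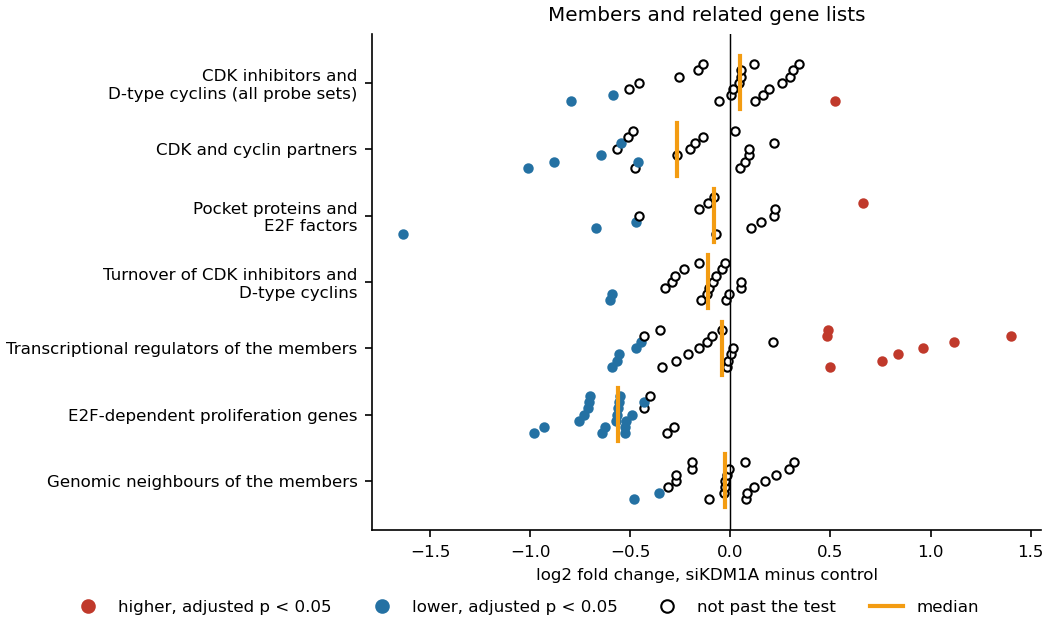
Log2 fold change, siKDM1A minus control (horizontal axis), of the member probe sets and of the genes of 6 lists (rows, 1 point per gene for the lists), with the median of each row in orange. Red points were higher and blue points lower at an adjusted p of 0.05. The E2F-dependent proliferation genes lie wholly left of 0 with a median of -0.56, while the members scatter on both sides of 0 with a median of 0.05.

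The genes that lie near the members in the RefSeq order mostly did not pass the test. Of 21 neighbours measured, 2 fell, 0 rose and 19 did not pass, with a median log2 fold change of -0.03, which was 0.02 after cyclic loess scaling. At an unadjusted p under 0.05, 1 was higher and 6 lower, and the one-way analysis of variance called 0. GPR19, an orphan receptor gene next to CDKN1B, fell by 0.48 (adjusted p = 0.027, limma), and TAF8, close to CCND3, by 0.36 on the log2 scale (adjusted p = 0.039, limma). Neither passed without siKDM1A replicate a or without control replicate a, b or c, where 0 neighbours were called lower. KCNQ1OT1, the noncoding RNA of the imprinted domain that holds CDKN1C, had log2 means of 5.25 in siKDM1A cells and 5.56 in control cells (log2 fold change -0.31, adjusted p = 0.15, limma). PHLDA2, another maternally expressed gene of that domain, had a log2 fold change of 0.29 (adjusted p = 0.094, limma). SRSF3, close to CDKN1A, had a log2 fold change of -0.11 (adjusted p = 0.57, limma). CDKN2B-AS1, the noncoding RNA antisense to CDKN2B, and MTAP, beside it, had log2 fold changes of -0.02 and -0.27 (adjusted p = 0.96 and 0.23, limma). The mean of CDKN2B-AS1, 2.58, lay below the lower quartile of the arrays, where a change might not be detectable.

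Genes whose values followed those of a called member across the 6 arrays were sought among 13172 genes above the array medians. The most similar to CDKN1A were RUSC2 (Pearson's r = 0.999), the integrin subunit gene ITGA5 (0.998) and BABAM2 (0.996), and 164 genes had r above 0.95. The most similar to CDKN1C on 213348_at were ANKZF1 (0.999), MRFAP1L2 (0.995) and the kinetochore gene KNTC1 (0.994), and 351 genes had r above 0.95. ITGA5 had a log2 fold change of 0.82 (adjusted p = 0.0050, limma) and KNTC1 one of -0.72 (adjusted p = 0.0063, limma). These correlations are descriptions over 6 arrays that share the difference between the groups.

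Over the whole series, array medians lay between 5.09 and 5.16. Of 9 measured markers of medulloblastoma and granule precursors, 6 lay above the array medians, while ATOH1, PAX6 and OTX2 did not. The summed log2 level of this list was 62.6 to 62.9 in siKDM1A cells and 63.2 to 64.1 in control cells, and ZIC1, ZIC2 and SOX2 were lower. All 3 endothelial markers (summed level 19.2 to 19.7 in siKDM1A and 19.2 to 19.4 in control cells), 2 of 3 blood markers (14.9 to 15.7 in siKDM1A and 14.9 to 15.3 in control cells) and 1 of 2 astrocyte markers (8.04 to 8.62 in siKDM1A and 8.05 to 8.80 in control cells) lay above the medians. PECAM1 was higher, and the part of these markers in the member results was not tested. RNA quality was read from the ACTB control probe sets. Their 3' signal exceeded the 5' signal by a log2 value of 1.01 ± 0.36 in siKDM1A cells and 1.17 ± 0.29 in control cells (SD, n = 3 each, exact permutation p = 0.7, two-sided).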

How the data were processed

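Gene expression was measured on 6 arrays of ONS-76 cells, 3 siKDM1A and 3 control. The authors normalized them with RMA in Partek, whose version is not stated in the sources here. Their deposited table holds log2 values of 54675 probe sets. RMA gives the arrays a common intensity distribution, which would largely remove a shift shared by most genes. The scanner files were not used here, and no detection call was made. Symbols came from the platform annotation; 1801 probe sets named several genes and 11721 named none.

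After 62 Affymetrix control probe sets were left out, the log2 values were fitted with limma 3.58.1 (lmFit and eBayes) in R 4.3.3, siKDM1A minus control, with a two-sided test. P-values were adjusted by Benjamini and Hochberg's method over all 54613 remaining probe sets, and adjusted values under 0.05 were called. Fits of gene averages, or of probe sets above the median level only, were adjusted over the genes or probe sets they held. The script was tested on simulated data. Differences between probe sets were tested by exact permutation of the arrays. The 3 arrays per group limit the precision of every value.

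Unless another test is named, an adjusted p is limma's. Members and lists were chosen with earlier results of these data known, and only 121 of 128 list genes had a probe set of their own. The text names all members, up to 4 called genes of each list by adjusted p, list genes that act on a called member, and the 3 genes most similar to each called member; further list genes were chosen after their values were seen. Alternatives were other scalings, a filter on dim probe sets, another variance model, the one-way analysis of variance that the methods name, the replicate letter as a block, leaving out each array, other probe set rules and other thresholds. RefSeq promoter windows of GRCh38.p14 were matched by symbol; CDKN1C, CCND1 and CCND2 were named only.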

Additional observations from a re-analysis of the deposited data

How the results depend on the processing

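Of 253 log2 fold changes of member probe sets recomputed under the alternatives, 227 kept their direction and their side of the threshold, 9 lost their call, 4 gained one and 13 changed sign. The sign changes concerned 5 INK4 probe sets whose log2 fold changes were at most 0.05 in size. CDKN2A 211156_at had -0.014 after median centring and -0.023 after cyclic loess, and -0.049 to 0.058 when each array was left out. CDKN2B 207530_s_at had -0.024 and -0.037 under these scalings, and -0.12 to 0.10 when each array was left out. The ranges on leaving out each array were -0.015 to 0.12 for CDKN2A 209644_x_at, -0.024 to 0.14 for CDKN2B 236313_at and -0.028 to 0.13 for CDKN2D 213586_at. The mean of all CCND2 probe sets gave 0.050, against -0.059 for the brightest. Among uncalled probe sets that kept their sign, leaving out siKDM1A replicate c gave 0.13 for CCND1 208712_at and 0.091 for CCND3 201700_at, and leaving out siKDM1A replicate a gave 0.078 for CDKN1C 219533_at. CDKN2D 210240_s_at ranged from -0.25 to -0.069. The cause of these changes was not tested.

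The count of member probe sets called higher, 1, was 0 under the one-way analysis of variance and at an adjusted p of 0.01, and 0 to 2 when each array was left out. The count called lower, 2, was 0 under that test, 1 without probe sets ending in _x_at, 1 with the brightest probe set per gene, 4 at an adjusted p of 0.1, 1 at 0.01 and 1 to 2 when each array was left out. The median member log2 fold change was -0.14 over probe sets above the median level, which leaves fewer members, and 0.0041 to 0.094 when each array was left out. Of the list genes, 9 were higher and 36 lower; that test called 1 and 19, and leaving out each array gave 6 to 9 and 25 to 34. KDM1A stayed lower under all 12 of its alternatives.

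Deviations of same-lettered arrays from their group means correlated at 0.11, 0.23 and -0.13, and those of differently lettered arrays at -0.32 to 0.18. So few values cannot decide whether the letters pair the arrays. With the letter as a replicate block, 1 member probe set was called lower in place of 2, and over all probe sets 1080 were higher and 1639 lower, against 1193 and 2037 without it. The analysis of variance called 275 higher and 401 lower. Leaving out each array gave 609 to 1103 higher and 694 to 1563 lower.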
